A study of Homo sapiens with 9 samples.

Results

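This account concerns 463 quiet protein-coding genes that lie just past the end of an expressed gene in HEK293T cells, a human embryonic kidney cell line. A gene was taken as quiet when its mean level in the 2 untreated libraries was under 2 CPM, the count scaled to the column total, and its counts over all 9 libraries summed to at least 10. It had to start within 15 kb past the end of a gene on the same strand whose mean untreated level was 10 CPM or more, here called its upstream gene, and to share no span with such a gene on that strand. Chromosome Y, all genes whose symbol begins with ZNF and 8 further named genes were left out, and the rule without those name exclusions gave 469 genes. The 463 members came from 60664 genes in the table, of which 29684 had at least 10 counts and were tested, so every member was tested. They were 463 of 2707 quiet protein-coding genes of any position.

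The 5 conditions were untreated wild-type cells at 37 °C (NC), cells taken at the end of 1 h at 43 °C (H1), and cells given a recovery period at 37 °C after that hour. Recovery lasted 1 h in H1R1, 6 h in H1R6 and 18 h in H1R18. There were 2 libraries of each, except for H1R18, which had 1. All were made from total RNA of the same line after removal of ribosomal RNA, so RNA without a poly(A) tail could be counted. Whether the replicates were separate cultures is not stated in the labels. The tests below therefore weigh differences against the spread between libraries, which may be technical.

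RNA polymerase II does not stop at the end of a gene. It transcribes past the poly(A) signal, and a cleavage complex that contains CPSF, CstF, PCF11 and symplekin cuts the transcript near that signal. The polymerase is then released downstream with the help of the exonuclease XRN2, so that the stretch after an active gene is normally left with little RNA. Genes that lie in this stretch can receive reads from their own promoter or from a transcript that began upstream, and counts per gene do not tell these apart.

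The members sat a median of 5.42 kb past the upstream gene, from 17 bases to 14.97 kb. They shared 441 upstream genes, of which 22 had 2 members each, and 451 members had a protein-coding upstream gene. The median upstream level in NC was 48.1 CPM, with a range of 10.04 to 1500 CPM. The median exonic length was 2980 bases, 24 members had a single exon block, and 232 were on the plus strand. For 55 members another annotated gene of the same strand lay inside the gap, for 62 the span ran over an expressed gene of the other strand, and for 20 an expressed gene of the other strand started within 1 kb of the member's start. Since the counting ignored strand and left out reads that fell in more than 1 gene, the 62 members with at least 50% of their exon bases in exons of another gene were measured on their remaining bases only. For these 62 a count under the limit need not mean little RNA, so quiet refers to the counts. A gene that joins the upstream gene to the member is annotated for 13 members, among them ADORA2A, BGLAP, SNX15 and TICAM2.

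The last 30 bases of 8 upstream genes are shown because they hold the point at which transcription normally gives way to cleavage before the member is reached. Capitals mark a poly(A) signal, searched as AATAAA or ATTAAA on the transcribed strand. Positions are on GRCh38, and the sequences are from GENCODE 29 transcripts that end at the gene end used for counting.
TPM3, before NUP210L (chr1:154155304-154155333, minus strand): gaagaaATTAAAgggttttttttagacttt
NCSTN, before NHLH1 (chr1:160358923-160358952, plus strand): agtttcATTAAAatagattatcccacacga
LIG1, before PLA2G4C (chr19:48115445-48115474, minus strand): ttctttcAATAAAtaattattggatagcta
CASP2, before CLCN1 (chr7:143307667-143307696, plus strand): tgccaAATAAAtgctcatatttattactga
TRAF3, before AMN (chr14:102911471-102911500, plus strand): gaggaaAATAAAtctgattatggagtctca
NRBP1, before KRTCAP3 (chr2:27442230-27442259, plus strand): gctgtAATAAAagtctactttttgctaaaa
P3H1, before CLDN19 (chr1:42746335-42746364, minus strand): ttcagacaatggaaatttgcccattctgtc
UBE2J2, before C1QTNF12 (chr1:1253909-1253938, minus strand): gtctttcattatatctttatttctgaattt
The first 6 hold a signal, and the last 2 hold neither of these letter strings. Over all 441 upstream genes, with the farthest GENCODE 29 end used, 222 (50.3%) held AATAAA and 53 (12.0%) held ATTAAA without it. The shares over the 10172 protein-coding genes at 10 CPM or more were 50.9% and 12.8%, so the ends of the upstream genes were close to those of expressed genes at large in these letters. For the 51 upstream genes whose member was higher at H1 or at H1R1 in the test described below, the shares were 45.1% and 13.7%.

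Heat shock factor binds repeats of an element searched here as GAANNTTC or TTCNNGAA, both of which read the same on either strand. RefSeq promoter windows on GRCh38.p14, from 250 bases before to 50 bases after the annotated start, could be matched for 341 of the 463 members. So many members lack a window that a share over the members is void and none is compared. Of all 27305 windows, 13.7% held the element. Of the 341 matched members 45 held it. Of the 51 members higher at H1 or H1R1 in the test described below, 35 were matched and 10 held it. With windows missing these are counts only, and a difference was not tested. The members named here were picked by other rules and do not stand for those that rose. Among the members named below whose window was matched, SPTBN5, FES, PIK3R2 and CCIN held it. Stretches of 30 bases are shown for SPTBN5 and FES with the element in capitals, and the RefSeq start of FES lies inside the span used for counting.
SPTBN5 (chr15:41894109-41894138, minus strand): gccctggagcaTTCCTGAAccaccccctcc
FES (chr15:90884803-90884832, plus strand): gttggctcctgTTCCCGAAcgtgcggagga
The windows of ACTA1, AMN, ANKLE1, C1QTNF12, CLCN1, DHH, FBLL1, NHLH1 and NUP210L, among others, held none.

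Library totals ran from 3814195 to 6221613 counts. Each read of a pair was counted, so most values are even and the number of independent fragments is smaller than the count. At these depths the limit that a count of 0 allows, taken as 3 read pairs or 6 counts, was 1.01 to 1.54 CPM per library, and a member's whole count over the 9 libraries was 10 to 342 with a median of 42. The labels were checked on 2 chaperone genes: the mean of HSPH1 was 134 CPM in NC and 1705 CPM at H1, and that of DNAJB1 was 75 and 1985 CPM. Of 5 genes listed as markers of the line, LIN28B (108 CPM in NC), NEFM (54.7) and PAX2 (13.8) were detected, INA was at 1.40 CPM and CRABP1 was at 0. Among markers of other cells, PTPRC, CD3E and PECAM1 were at 0 in NC, VWF and ALB were under 0.7 CPM, and the fibroblast collagens COL1A1 and COL3A1 were at 61.1 and 9.33 CPM in NC and at 59.8 and 9.24 CPM at H1.

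Taken as a group, the members had more RNA at the end of the heat hour. Their summed level, in CPM scaled by the trimmed mean of M-values (TMM), was 350 and 336 in the NC libraries and 719 and 792 in the H1 libraries, a ratio of 2.21. After 1 h of recovery it was 695 and 587, a ratio of 1.87 to NC. It stood at 417 and 438 at H1R6 and 437 at H1R18, ratios of 1.25 and 1.28. The H1 and H1R1 libraries lay above all NC, H1R6 and H1R18 libraries, with no overlap. In bulk samples a change in the number of cells and in the RNA per cell cannot be told apart. The upstream genes did not follow: their summed level was 38740 and 37821 CPM in NC and 38298 and 38291 CPM at H1, a ratio of 1.00, and ratios of 1.02, 0.985 and 0.935 at the later times. Without the 5 members of highest total count the members' ratios were 2.12 at H1 and 1.77 at H1R1. TMM scaling left the median log2 fold change of all genes tested between -0.02 and 0.03 in the 6 comparisons.

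**Figure D1:**
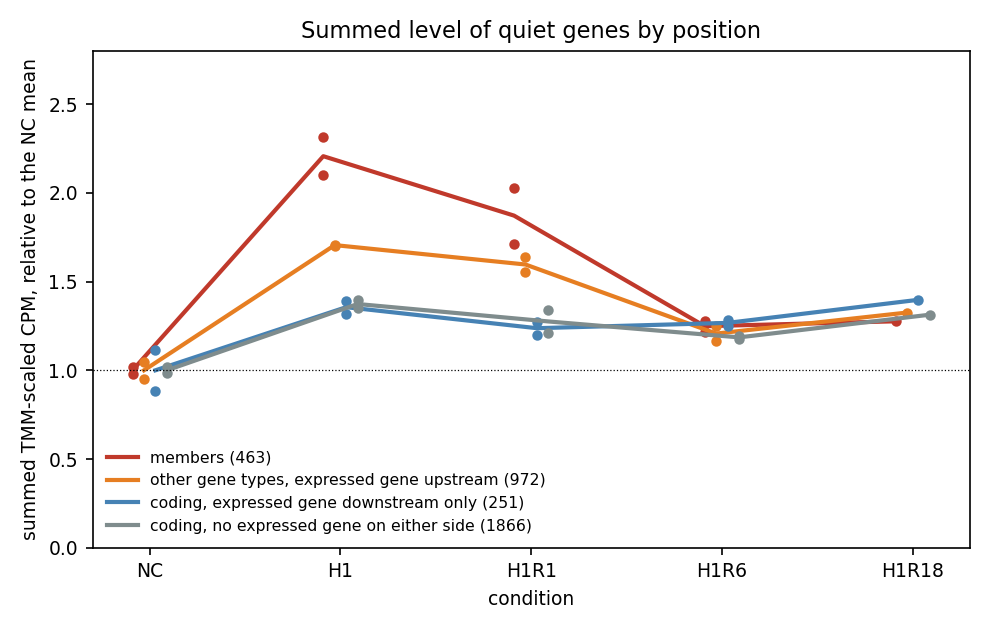
Summed TMM-scaled CPM of 4 sets of quiet genes in each library, divided by the mean of the NC libraries (vertical axis, from 0), by condition (horizontal axis). Points are libraries and lines join condition means: the members reach 2.21 at H1, quiet genes of other types placed alike 1.71, and quiet coding genes without an expressed upstream gene 1.36 and 1.37.

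Because quiet genes were selected for a low level in NC, some rise against NC was built into the rule. Quiet genes selected by the same level rule but placed differently are therefore given beside them, and these too were higher after heat. At H1 the summed level was 1.36 times NC for 251 quiet coding genes with an expressed gene only downstream, 1.37 times for 1866 with an expressed gene on neither side, and 1.71 times for 972 quiet genes of other types, mostly noncoding RNAs and pseudogenes, that had an expressed gene upstream. At H1R6 the 4 sets were together, at 1.25 times for the members and 1.27, 1.19 and 1.21 times for the others in the same order. These ratios are descriptions, and no test of the difference between sets was made.

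Per gene, 35 members passed the test at H1 in the upward direction (7.56% of them) and 0 in the downward direction, by edgeR's quasi-likelihood test at a Benjamini-Hochberg adjusted p under 0.05. Of all genes tested, 2.70% were higher and 1.18% lower in this comparison. The NC libraries entered both the rule and this contrast, so the count is a description rather than evidence about position. Beside it stand 2.39% of the quiet genes with an expressed gene only downstream, 1.71% of those with none on either side and 3.09% of the quiet genes of other types with one upstream. The median log2 fold change was 0.92 over the members and 0.32, 0.24 and 0.58 over those 3 sets, against 0.02 over all genes tested. With a gene at 0 in 1 group set at the limit of 6 counts there, the members' median was 0.64. Such a gene was taken as unchanged where the other group had 6 counts or fewer. Neither tool called a member lower at H1 (DESeq2 also gave 0), and 5 members had an unadjusted p under 0.05 in that direction against 101 upward. In 209 members (45.1%) both H1 libraries lay above both NC libraries, a pattern that 23.0% of all genes showed.

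At H1R1, 39 members were higher (8.42%) and 1 was lower, where 7.38% of all genes tested were higher and 6.33% lower. The members' share was therefore close to that of all genes, which changed widely at this time, whereas 2.39%, 3.11% and 2.88% of the other quiet sets were higher. The median log2 fold change was 0.75 over the members, 0.03 and 0.03 over quiet coding genes without an expressed upstream gene, and 0.54 over the quiet genes of other types. Both H1R1 libraries lay above both NC libraries in 165 members (35.6%), against 24.6% of all genes. Of the members, 23 were higher at both H1 and H1R1, which is 65.7% of those higher at H1 and 59.0% of those higher at H1R1. The 2 comparisons share the NC libraries.

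The number of members that passed rested on individual libraries. At H1 it fell from 35 to 11 and 7 without the first and the second NC replicate, and to 18 and 12 without the first and the second H1 replicate. It was 17 and 16 without the first and the second H1R1 replicate, which are not part of the contrast but set the shared estimate of the spread. At H1R1 it fell from 39 to 17 without either NC replicate and to 7 and 19 without the first and the second H1R1 replicate. The summed ratio depended less on them, at 2.10 to 2.31 for H1 and 1.71 to 2.03 for H1R1 with any 1 library of the pair of conditions left out.

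The same counts were made without members that share bases or a span with other genes. Of the 401 members with under 50% of their exon bases in another gene, 34 were higher at H1 (8.48%) and 37 at H1R1 (9.23%). Of the other 62 it was 1 (1.61%) and 2 (3.23%). The shares of all genes tested were 2.70% and 7.38%. Of the 401 that lay over no expressed gene of the other strand, 30 (7.48%) and 35 (8.73%) were higher. Of the 408 with no annotated gene in the gap the numbers were 33 (8.09%) and 35 (8.58%). Of the 20 with an expressed divergent start nearby 0 were higher at either time by edgeR, a set too small to compare.

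To keep the NC library that set the low level out of the contrast, quiet genes were chosen again on 1 NC replicate and compared with the other alone. The minimum of 10 counts still used all 9 libraries, for the members and the other sets alike, so that a gene near 0 in NC could enter only through later libraries and part of a rise remained built in. Chosen on the first and compared with the second, 450 members had a median log2 fold change of 1.04 at H1, with 334 (74.2%) above 0. The quiet coding genes with an expressed gene only downstream, those with none on either side and the other gene types had medians of 0.66, 0.33 and 0.76, and all genes 0.05. With the replicates exchanged, 462 members had a median of 0.92, and the 3 other sets had medians of 0.10, 0.20 and 0.49, against 0 for all genes. With a single untreated library in each of these fits, medians only are given. At H1R1 the members' medians were 0.78 and 0.71. Those of the quiet coding genes with an expressed gene only downstream were 0.23 and 0, and with none on either side 0.06 and 0. The other gene types had 0.59 and 0.46, and all genes 0.03 and -0.01. At H1R18 the members' median was 0 in both.

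**Figure D2:**
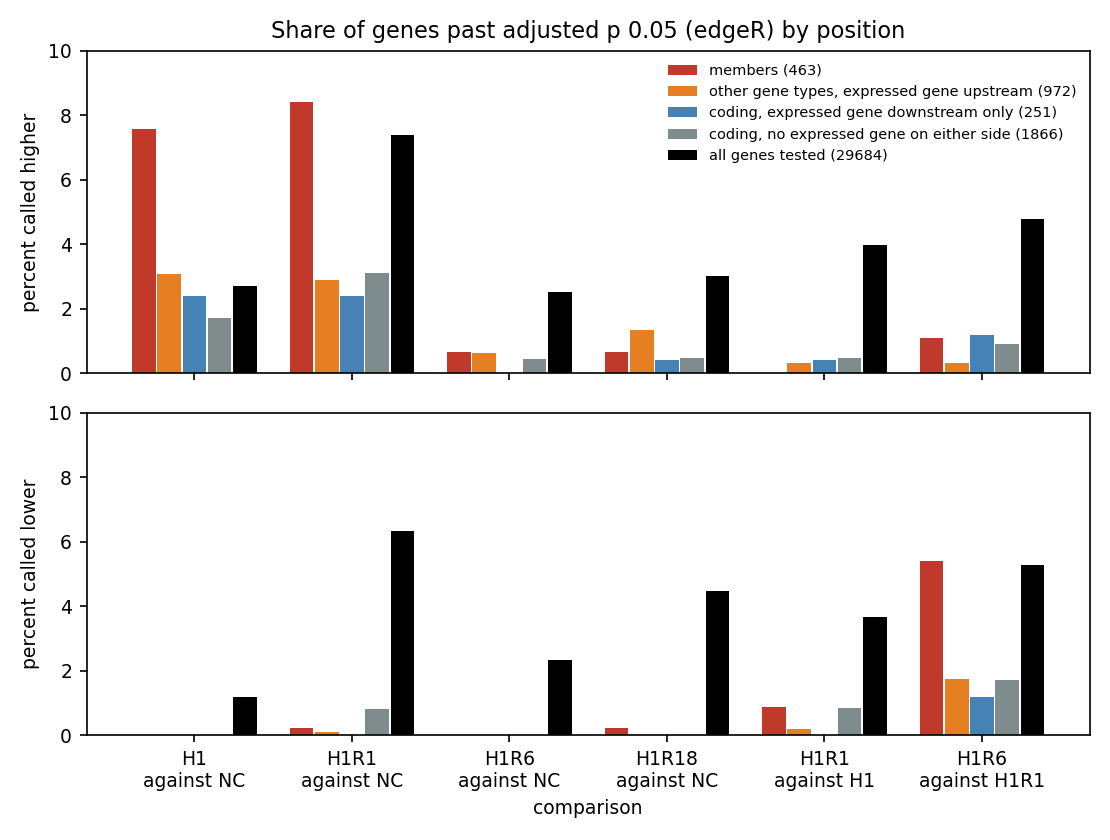
Percent of each set of genes past an adjusted p of 0.05 in edgeR's quasi-likelihood test (vertical axes), higher in the upper panel and lower in the lower panel, for 6 comparisons. At H1, 7.56% of members and 2.70% of all genes tested were higher; at H1R6 and H1R18 the members' share was 0.648%.

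In each of 4 distance bins the members' median was above 0 after heat. Against NC at H1, the members at 0 to 2 kb (n = 109), 2 to 5 kb (n = 109), 5 to 10 kb (n = 148) and 10 to 15 kb (n = 97) had medians of 0.96, 0.78, 0.74 and 1.25 on the log2 scale. The numbers higher were 10, 8, 13 and 4 (9.17%, 7.34%, 8.78% and 4.12%), beside 2.70% of all genes tested. At H1R1 the medians were 1.05, 0.49, 0.54 and 0.85, so neither time showed an ordered fall with distance. The numbers higher were 13, 5, 12 and 9 (11.9%, 4.59%, 8.11% and 9.28%), beside 7.38% of all genes tested. Across the 463 members Spearman's rho between distance and log2 fold change was 0.05 at H1 and 0.00 at H1R1, a description over genes that share libraries and differ in depth. The summed level at H1 was 2.22, 2.14, 2.13 and 2.41 times NC in the 4 bins. Quiet genes 15 to 30 kb past an expressed gene, which were not members (n = 235), had a summed ratio of 1.74 at H1 and 1.71 at H1R1. Their medians were 0.63 and 0.66, with 10 (4.26%) and 17 (7.23%) genes higher.

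**Figure D3:**
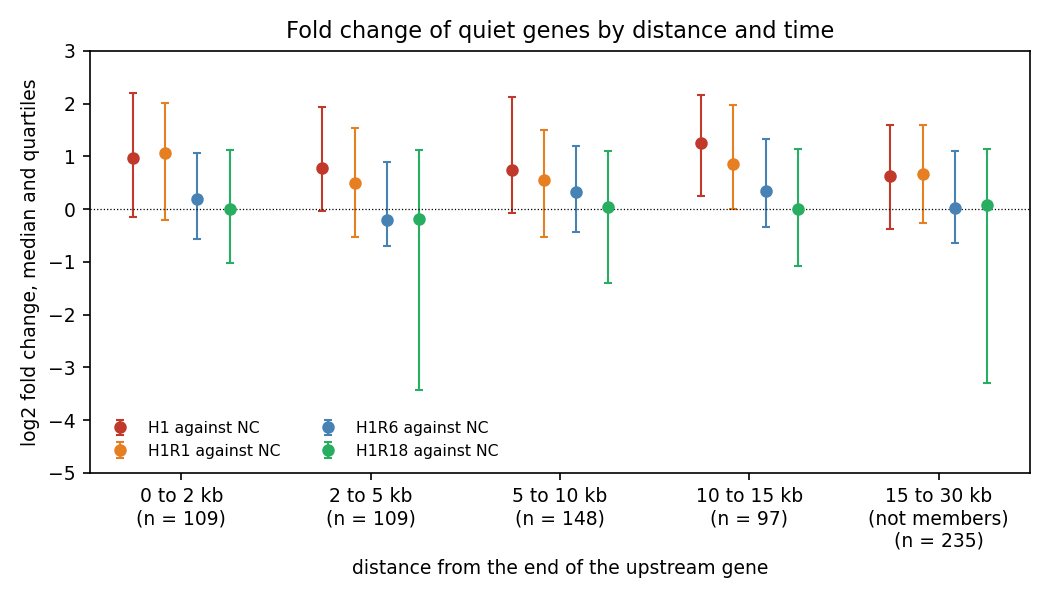
Log2 fold change against NC (vertical axis) of members in 4 distance bins and of genes of the same rule at 15 to 30 kb (horizontal axis), at 4 times. Points are medians over genes and bars span the interquartile range: medians at H1 are 0.96, 0.78, 0.74, 1.25 and 0.63 from near to far, and at H1R18 all lie between -0.18 and 0.07.

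The number that passed was lowest among members with a weakly expressed upstream gene. Of the 154 members with the lowest upstream level in NC, 3 were higher at H1 (1.95%) and 5 at H1R1 (3.25%). Of the 155 in the middle it was 11 (7.10%) and 18 (11.6%), and of the 154 with the highest upstream level 21 (13.6%) and 16 (10.4%). The shares of all genes tested were 2.70% at H1 and 7.38% at H1R1. The medians were 0.69, 1.11 and 0.97 at H1 and 0.47, 0.82 and 0.79 at H1R1. Over all members, Spearman's rho of the log2 fold change with upstream level was 0.08 and 0.11, again as a description. Members that passed at H1 also had more counts, with a median total of 138 against 40 for the rest, and the number of counts limits which genes can pass.

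Per kilobase of exon, the members stayed far below their upstream genes. In NC a member's level was a median of 1.99% of its upstream gene's, in CPM per kilobase, and it was 3.71% at H1, 3.13% at H1R1, 2.21% at H1R6 and 1.60% at H1R18. For the 51 members that were higher at H1 or H1R1 the same medians were 1.45%, 8.36%, 8.07%, 3.19% and 2.14%. These members were chosen by that rise, so their medians are a description.

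Where members rose at H1, most of their upstream genes did not pass the test. Of the 35 members that were higher, the upstream gene was higher for 3 and lower for 0, and the median log2 fold change of those upstream genes was 0.07. The median log2 fold change at H1 was -0.01 over all 441 upstream genes. Of them 19 were higher (4.31%) and 11 lower (2.49%), beside 2.70% and 1.18% of all genes tested. These counts fell to between 6 and 12 and between 5 and 9 without any 1 of the NC, H1 or H1R1 replicates. At H1R1 85 upstream genes were higher (19.3%) and 65 lower (14.7%), beside 7.38% and 6.33% of all genes tested. Upstream genes were at 10 CPM or more in NC, as 11018 genes were, while the 29684 tested needed only 10 counts in all. Since the number of counts limits which genes can pass, all genes tested are not a like background for upstream genes at either time. The upstream gene was higher for 14 of the 39 members that rose and lower for 3. The 85 and 65 became 34 and 15 without the first H1R1 replicate, 63 and 35 without the second, 56 and 30 without the first NC replicate and 54 and 44 without the second. Spearman's rho between the log2 fold changes of member and upstream gene was 0.11 at H1 and 0.20 at H1R1 over 463 pairs, in which an upstream gene with 2 members enters once for each.

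**Figure D4:**
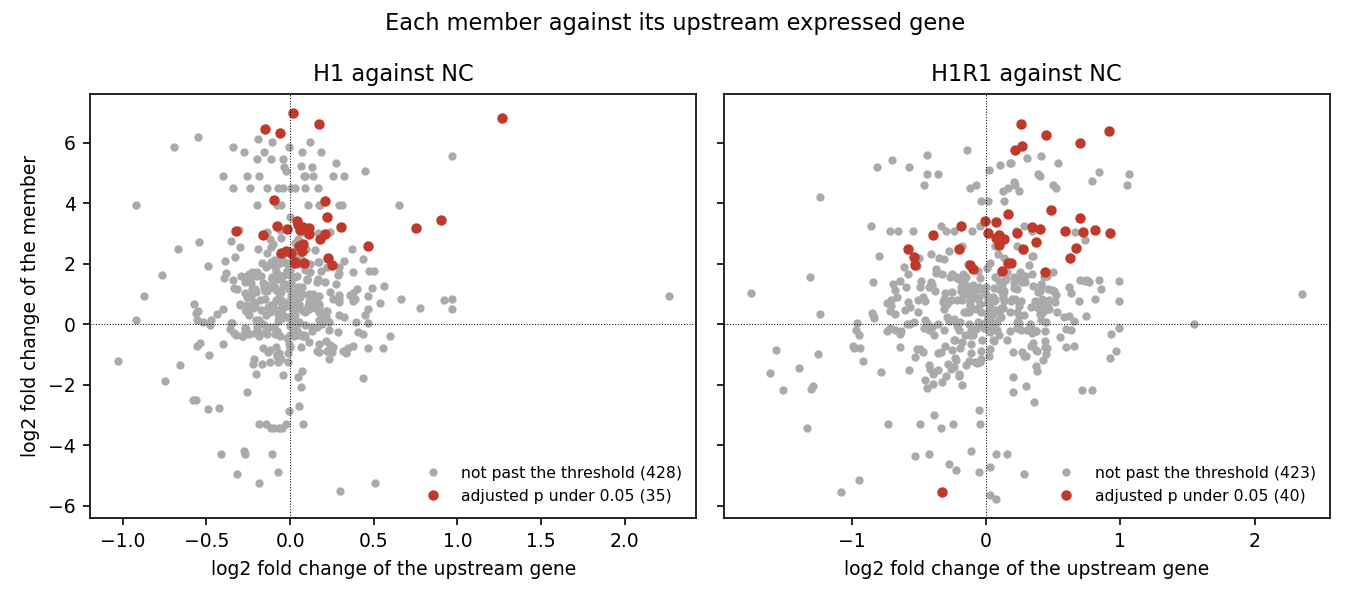
Log2 fold change of each of the 463 members (vertical axis) against that of its upstream gene (horizontal axis), at H1 and at H1R1 against NC. Each point is 1 member and red points passed an adjusted p of 0.05 in edgeR (35 at H1, 40 at H1R1): red points above 0 lie between 1.72 and 6.99 on the vertical axis, the 1 red point below 0 at H1R1 is CCIN, and the values near 6 belong to members at 0 in NC, whose fitted fold change depends on edgeR's prior count.

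The members named next were chosen by the smallest p at H1 or H1R1, so their separation from NC at that time is a description. Genes of the cell skeleton come first. SPTBN5, a beta spectrin of the membrane skeleton, lies at chr15:41848146-41894053, 1.88 kb past EHD4, an endocytic recycling ATPase. Its level was 2.24 and 1.54 CPM in NC, 9.53 and 14.9 after the heat hour, 13.5 and 13.9 after 1 h of recovery, 3.20 and 1.76 after 6 h and 4.55 after 18 h. Both early times were above every other library. The log2 fold change was 2.66 ± 0.42 (SE) at H1 (edgeR adjusted p = 4.83e-06) and 2.82 ± 0.42 at H1R1 (edgeR adjusted p = 3.43e-07). EHD4 was at 42.1 and 42.5 CPM in NC and 47.3 and 41.8 CPM at H1, a log2 fold change of 0.07.
ACTA1, the alpha-actin of skeletal muscle at chr1:229430365-229434104, is 6.16 kb past the nucleoporin gene NUP133. It was at 0 and 1.54 CPM in NC, 9.89 and 5.27 after the heat hour, 8.42 and 6.38 after 1 h of recovery, 3.56 and 2.11 after 6 h and 1.01 after 18 h. No NC library reached an H1 or H1R1 value. The log2 fold change was 3.41 ± 0.63 at H1 and 3.38 ± 0.63 at H1R1 (edgeR adjusted p = 0.000104 and 3.99e-05), while NUP133 was at 0.04 and 0.07. Reads that match several actin genes were not counted, so the level rests on bases particular to ACTA1.
CASS4, a scaffold protein of focal adhesions at chr20:56412112-56460387, is 5.75 kb past CSTF1, itself a subunit of the cleavage stimulation factor. It rose from 0 and 1.54 CPM in NC to 6.47 and 7.20 at H1 and 8.42 and 9.58 at H1R1, and was at 1.42 and 1.41 CPM at H1R6 and 0 at H1R18. The H1 and H1R1 values were thus well apart from all others. Log2 fold changes were 3.26 ± 0.63 and 3.65 ± 0.62 (edgeR adjusted p = 0.000239 and 5.96e-06), with CSTF1 at -0.08 and 0.16.

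NUP210L, a paralogue of the nuclear pore glycoprotein gene NUP210, starts only 188 bases past the tropomyosin gene TPM3, whose end is printed above. It had 2.44 and 1.02 CPM in NC, 7.91 and 10.7 after the heat hour, 10.4 and 10.0 after 1 h of recovery, 2.49 and 3.87 after 6 h and 1.52 after 18 h. The 4 early values stood above the other 5. Log2 fold changes were 2.36 ± 0.46 at H1 and 2.50 ± 0.45 at H1R1 (edgeR adjusted p = 0.000229 and 2.37e-05), and those of TPM3 were 0.01 and 0.28. CLCN1, the chloride channel of skeletal muscle, is 8.42 kb past the caspase gene CASP2. It had 0 counts in both NC libraries. There were 21 and 14 in the H1 libraries, 16 and 9 after 1 h of recovery, 4 and 12 after 6 h and 2 after 18 h. Against a limit of 6 counts over the NC libraries it was at least 4.57-fold higher at H1, at least 3.56-fold higher at H1R1 and at least 2.08-fold higher at H1R6 (edgeR adjusted p = 0.00115, 0.00121 and 0.0225).

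Several signalling genes were also higher at both early times. DHH, the Desert hedgehog ligand, lies 2.34 kb past LMBR1L and was at 0.813 and 1.02 CPM in NC, 6.47 and 9.48 after the heat hour, 8.09 and 7.07 after 1 h of recovery, 2.85 and 1.05 after 6 h and 4.55 after 18 h. It was higher at H1 (log2 fold change 3.10 ± 0.55, edgeR adjusted p = 5.15e-05), at H1R1 (3.03 ± 0.56, 2.89e-05) and again in the single H1R18 library (2.29 ± 0.70, 0.0289), where LMBR1L was also higher, at 0.77. FES, a cytoplasmic tyrosine kinase, starts 131 bases past the protease gene FURIN. Its level was 0.813 and 1.02 CPM in NC, 5.75 and 7.37 after the heat hour and 7.08 and 5.02 at H1R1, with 1.78, 3.16 and 1.52 CPM in the 3 later libraries. The log2 fold changes were 2.82 ± 0.58 and 2.71 ± 0.59 (edgeR adjusted p = 0.000707 and 0.00043), and FURIN rose by 0.37 at H1R1. PLA2G4C, a cytosolic phospholipase, is a case in which member and upstream gene parted. It rose from 1.22 and 1.54 CPM in NC to 6.47 and 8.25 at H1 and 7.75 in each H1R1 library, while LIG1, the DNA ligase gene 4.63 kb before it, was at 119 and 109.9 CPM in NC and 74.8 and 78.4 CPM at H1R1. The H1R1 log2 fold changes were 2.49 ± 0.53 for PLA2G4C and -0.58 for LIG1 (edgeR adjusted p = 0.000356 and 2.51e-05).

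Of the other members named by p, NHLH1, a neuronal helix-loop-helix factor 8.12 kb past the gamma-secretase gene NCSTN, was at 0.813 and 0.512 CPM in NC, 6.11 and 6.32 after the heat hour and 6.07 and 7.30 at H1R1. FBLL1, a fibrillarin-like gene 10.00 kb past the arginyl-tRNA synthetase gene RARS1, had 4 and 0 counts in NC against 20 and 42 at H1 and 34 and 22 at H1R1. Both had log2 fold changes over 3 at each time, of 3.15 and 3.25 for NHLH1 and 3.55 and 3.52 for FBLL1 (edgeR adjusted p from 0.0001 to 0.00128). NCSTN did not pass the test at either time, and RARS1 passed at H1R1 with 0.70. AMN, a partner of the vitamin B12 receptor 11.16 kb past TRAF3, was at 0.610 and 1.54 CPM in NC and 10.6 and 10.0 at H1 (log2 fold change 3.29 ± 0.53, edgeR adjusted p = 7.55e-06). Its span lies over CDC42BPB, an expressed gene of the other strand, and reads from the 2 strands cannot be told apart here. ANKLE1, an endonuclease gene 396 bases past BABAM1, passed at H1R1 (3.03 ± 0.67, edgeR adjusted p = 0.000521) and was at 1.74 ± 0.72 at H1 (0.221). IQCA1L, 5.99 kb past ABCF2, passed at H1R1 with 3.11 ± 0.73 (edgeR adjusted p = 0.00112), where ABCF2 was also higher, at 0.81.

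**Figure D5:**
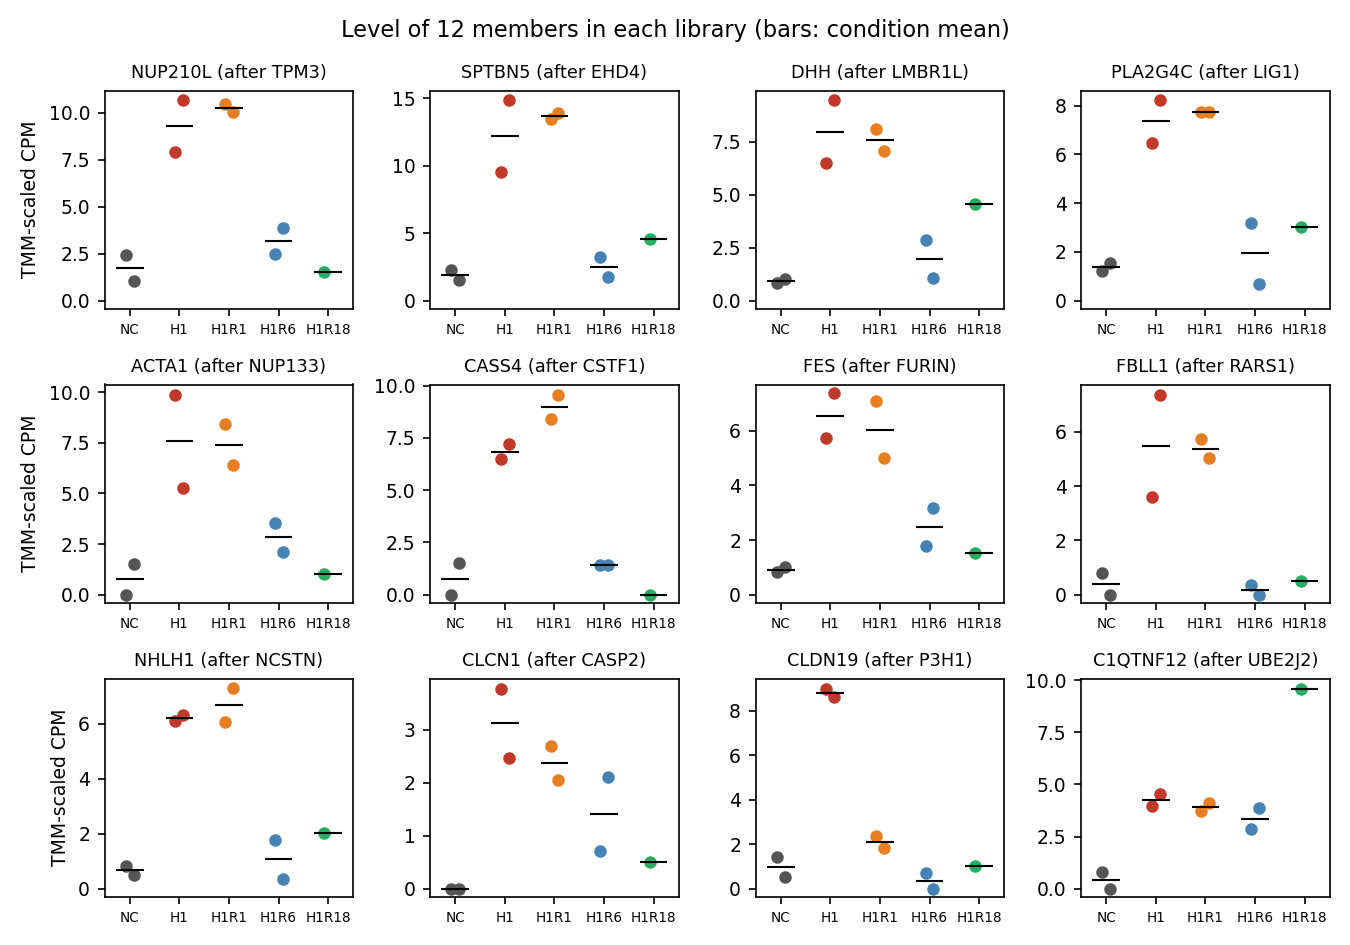
TMM-scaled CPM (vertical axes, linear) of 12 members in each of the 9 libraries by condition (horizontal axes), with the upstream gene in each title. Points are libraries and bars condition means: SPTBN5 has 9.53 to 14.9 CPM at H1 and H1R1 and at most 4.55 elsewhere, CLDN19 is high only at H1, and C1QTNF12 is highest in the single H1R18 library, at 9.60 CPM.

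The first hour of recovery lowered a few members. H1R1 against H1 holds no NC library, though its libraries counted towards the minimum of 10 counts. In it 4 members were lower and 0 higher, where 3.98% of all genes tested were higher and 3.66% lower. DESeq2 likewise gave 0 members higher, and 6 had an unadjusted p under 0.05 in that direction against 24 downward. The median over the members was -0.29, and -0.02 over all genes. CLDN19, a tight-junction claudin 6.08 kb past P3H1, was at 1.42 and 0.512 CPM in NC, 8.99 and 8.60 after the heat hour, 2.36 and 1.82 at H1R1 and 0 to 1.01 later, so that both H1 libraries stood alone. It fell by 2.04 on the log2 scale from H1 to H1R1 (SE 0.54, edgeR adjusted p = 0.00906), while P3H1 was at 0.07. AMN and MSANTD1 fell by 1.32 and 1.60 (edgeR adjusted p = 0.0371 and 0.0482). MSANTD1 is 412 bases past the huntingtin gene HTT. MAP1LC3A, an autophagy gene 6.11 kb past the ubiquitin ligase gene ITCH, had 8 and 14 counts at H1 and 0 in both H1R1 libraries, at least 3.36-fold lower (edgeR adjusted p = 0.0297), but also 0 and 10 counts in NC. Without any 1 of the H1 or H1R1 replicates 0 members were lower in edgeR, and without either NC replicate 2 were.

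Between 1 h and 6 h of recovery, a contrast that also holds no NC library, 25 members were lower (5.40%) and 5 higher, against 5.29% lower and 4.77% higher of all genes tested. The members' share of lower genes was that of all genes, and it stood beside 1.20%, 1.71% and 1.75% of the quiet sets with an expressed gene only downstream, on neither side, or upstream of a gene of another type. Their median log2 fold change was -0.49, against 0.14, -0.01 and -0.32 in those sets and 0.00 over all genes. Both H1R6 libraries lay below both H1R1 libraries in 144 members (31.1%), as in 22.9% of all genes. Of the 25 members, 19 were among the 51 that were higher at H1 or H1R1, a count in which the H1R1 libraries enter both calls, so that it is a description. The 5 with the smallest p were SPTBN5 (-2.45 ± 0.38, edgeR adjusted p = 1.67e-06), FBLL1, CASS4 (-2.64 ± 0.52, 0.000142), NHLH1 (-2.62 ± 0.57, 0.000585) and NUP210L (-1.68 ± 0.40, 0.00188). FBLL1 had 56 counts over the H1R1 libraries and 2 over the H1R6 libraries, a ratio of 0.0326 with a 95% exact interval over read pairs of 0.000797 to 0.197, which covers counting error only. Of their upstream genes, NCSTN was lower as well, at -0.52, and EHD4, RARS1, CSTF1 and TPM3 did not pass. Without the first H1R1 replicate the 25 became 1, without the second 5, and without the first and the second H1R6 replicate 8 and 14.

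The 5 members that were higher at H1R6 than at H1R1 are named because they are few, after their values were seen. They were B3GNT3, CCIN, CRIP1, the histone gene H2BC6 and SFN, which encodes a 14-3-3 protein. B3GNT3 and CCIN had no count at H1R1 and 20 and 18 counts at H1R6, at least 3.04-fold and 2.74-fold higher (edgeR adjusted p = 0.0103 and 0.0171). CCIN was also the single member lower at H1R1 than in NC, where it had 10 counts (at least 1.95-fold lower, edgeR adjusted p = 0.0343). H2BC6 had 4 and 2 counts at H1R1 and 14 and 21 at H1R6, and its upstream gene H2BC5, another histone gene, rose by 0.99. CRIP1 went the other way from its upstream gene: it had 2 and 0 counts at H1R1 and 14 and 16 at H1R6, while CRIP2 fell by 1.48. Without either H1R1 replicate 0 members were higher in edgeR, and 2 and 1 were without the first and the second H1R6 replicate. No member was lower at H1R1 than in NC without either NC replicate, either H1R1 replicate or the second H1R6 replicate.

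At 6 h few members passed the test against NC. The 51 members that were higher at H1 or H1R1 had a median log2 fold change of 1.05 at H1R6 and 1.11 at H1R18, a description of members chosen on the same NC libraries. There were 3 members higher and 0 lower, against 2.51% higher and 2.32% lower of all genes tested. DESeq2 gave 0 in both directions, and 33 members had an unadjusted p under 0.05 upward and 8 downward. The 3 were CLCN1, the kinase gene NEK11 and C1QTNF12. NEK11 is 10.14 kb past the Golgi calcium pump gene ATP2C1 and had 3.91 and 4.92 CPM against 0.406 and 1.54 in NC (2.23 ± 0.67, edgeR adjusted p = 0.0341). The number was 0 without either H1R1 replicate or the second H1R6 replicate, and 1 without the first NC or the first H1 replicate. At H1R18, with 1 library, 3 members were higher and 1 lower, against 3.0% higher and 4.49% lower of all genes tested. They were C1QTNF12, DHH and PIK3R2, and MST1R. PIK3R2, a regulatory subunit of PI3-kinase, had 0 counts in NC and 10 at H1R18, at least 3.72-fold higher (edgeR adjusted p = 0.0219), but 76.4% of its exon bases lie in exons of another gene. MST1R, the RON receptor kinase 3.29 kb past MON1A, had 16 counts over the NC libraries, 52 and 33 at H1 and 0 at H1R18 (at least 1.20-fold lower, edgeR adjusted p = 0.0436). Leaving out any 1 of the NC, H1 or H1R1 replicates ended that call.

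C1QTNF12, which encodes a secreted adipokine and lies 7.19 kb past UBE2J2, followed another course. Untreated cells gave 4 and 0 counts, and the H1 libraries 22 and 26. Recovery of 1 h gave 22 and 18 counts, of 6 h 16 and 22, and of 18 h 38, so that the latest library was the highest. Its log2 fold changes against NC were 3.18, 3.05, 2.84 and 4.35 in that order (edgeR adjusted p = 0.0022, 0.00141, 0.0091 and 1.52e-05). The H1R18 ratio was 21.2, with a 95% exact interval over read pairs of 5.11 to 188. UBE2J2 was at 0.12, 0.72, 0.51 and -0.06 in the same 4 comparisons and passed the test at H1R1 and H1R6 (edgeR adjusted p = 2.98e-05 and 0.011), and 1 further annotated gene of that strand lies between them.

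The members closest to their upstream gene were not uniformly higher. Of the 5 with the shortest distance, KRTCAP3, 107 bases past NRBP1, was at 0.406 and 1.54 CPM in NC and 4.14 and 4.56 at H1 and passed narrowly (2.2 ± 0.68, edgeR adjusted p = 0.0467), with an expressed gene of the other strand, IFT172, across its span. PARVG, 17 bases past PARVB, had 0 counts in NC and 6 and 8 at H1 and did not pass (edgeR adjusted p = 0.199). TMOD4, a tropomodulin of muscle 20 bases past VPS72, had 1.22 ± 0.74 at H1 (edgeR adjusted p = 0.499). NIM1K, 50 bases past ZNF131, had 2.03 and 1.54 CPM in NC and 1.08 and 1.05 at H1, a log2 fold change of -0.74 ± 0.80. RSPH6A, a sperm radial spoke gene 102 bases past SYMPK, which encodes symplekin of the cleavage complex, had 1.22 and 0 CPM in NC and 1.26 and 1.05 at H1. The H1 and NC values overlapped for RSPH6A and lay in reverse order for NIM1K.

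At the borders of the rule, ST14 and NPFFR1 lay just inside 15 kb, at 14.97 kb each, with log2 fold changes of 1.5 and 0.33 at H1. TMEM59L and SRL lay just outside, at 15.09 and 15.11 kb, with 1.09 and -2.47. SFN and SLC9B1 were just under the level limit, each at 1.98 CPM in NC, with 0.40 and -0.24 at H1. LSMEM2 was just over it, at 2.01 CPM, with 1.24.

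The genes that end transcription were listed to show whether their own RNA moved. Of 48 listed genes for cleavage, polyadenylation, Integrator and termination, 47 were tested. At H1 5 were higher and 1 lower. The numbers were 13 and 0 after 1 h of recovery, 5 and 1 after 6 h, and 2 and 9 after 18 h. The shares of all genes given above, 2.70% higher and 1.18% lower at H1 and 7.38% and 6.33% at H1R1, are the background to these. Without the first or the second NC replicate the 5 at H1 became 3 and 2, and without the first or the second H1 replicate 2 and 3. The 1 lower at H1 became 0 without any of these 4. In the order of times the median log2 fold changes were 0.08, 0.13, 0.08 and -0.08. INTS6, an Integrator subunit, was at 67.0 and 65.0 CPM in NC, 289 and 285 after the heat hour and 131 and 130 at H1R1 (log2 fold changes 2.15 ± 0.10 and 1.05 ± 0.10, edgeR adjusted p = 1.1e-28 and 3.32e-13). PCF11, which couples cleavage to release of the polymerase, rose by 0.56 ± 0.10 and 0.71 ± 0.10 (edgeR adjusted p = 3.5e-05 and 4.43e-08). RPRD1B rose by 0.52 at H1 and WDR82, a phosphatase cofactor in termination, by 0.70 at H1R1. None of these values says what the proteins did, and CSTF1, SYMPK and SSU72, the 3 factors that are themselves upstream genes of members, had log2 fold changes of -0.08, 0.00 and 0.11 at H1.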

How the data were processed

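Total RNA from HEK293T cells was sequenced as paired reads after removal of ribosomal RNA. The authors deposited 1 table of raw read counts for 60664 genes and 9 libraries, made with featureCounts 2.0.2 on Ensembl 104 exons of GRCh38, without strand, and without reads that map to several places or genes. Per the submitters' processing notes, cutadapt 4.1, HISAT2 2.2.1, FastQC 0.11.8 and DESeq2 1.38.3 were used as well. Gene types came from GENCODE 29. Genes with at least 10 counts in all were fitted over the 5 conditions with edgeR 4.0.16 (R 4.3.3; TMM scaling, quasi-likelihood test, Benjamini-Hochberg over all 29684 genes). SE is the log2 fold change divided by the root of F. The script was tested on simulated data. Intervals and limits are over read pairs and cover counting error only, since the reads carry no molecular identifiers. The members and lists were chosen with earlier results of these data known. Members were named by smallest p (12 at H1 and at H1R1, up to 5 elsewhere), highest count, shortest distance and nearness to the limits of the rule. Alternatives changed scaling, tool, filter, libraries and rule. One gene just over the level limit is not reported here.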

Additional observations from a re-analysis of the deposited data

Results flagged for a closer look

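Differences between times were tested directly, without the untreated libraries that set the low level. The minimum of 10 counts used all 9 libraries, so those compared also entered the choice. The 58 members at 0 in both NC libraries entered only through later ones. From H1 to H1R1, 4 members were lower (0.864%, beside 3.66% of all genes tested): CLDN19, AMN, MSANTD1 and MAP1LC3A. From H1R1 to H1R6, 25 members were lower (5.40%) and 5 were higher (1.08%), beside 5.29% and 4.77% of all genes tested. The 5 higher members each had 10 counts or fewer over the H1R1 libraries.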

How the results depend on the processing

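No result changed direction. With DESeq2, 23 members were higher at H1, 0 lower at H1R1, 0 higher at H1R6, 0 lower at H1R18, 1 lower from H1 to H1R1, and 0 higher and 12 lower from H1R1 to H1R6. With only the conditions compared in the fit, these became 6, 0, 0, 0, 2, 0 and 8, with 1 higher at H1R18. With counts halved, 0 were lower at H1R1, 0 lower at H1R18 and 9 lower from H1 to H1R1. Without a filter 2 were lower at H1R1. With edgeR's own expression filter 2 were lower from H1 to H1R1, and the medians were 1.16 at H1 and 0.99 at H1R1.

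Within 5 kb, 18 members were higher at H1, 18 higher and 0 lower at H1R1, 0 higher at H1R6, 1 lower from H1 to H1R1, and 1 higher and 11 lower from H1R1 to H1R6. Within 30 kb, 2 were lower at H1R1 and 6 higher at H1R6. Under 1 CPM in NC, 0 were lower at H1R1, 0 lower at H1R18, 1 lower from H1 to H1R1, and 2 higher and 16 lower from H1R1 to H1R6. With upstream genes at 20 CPM or more, 0 were lower at H1R1 and 2 higher from H1R1 to H1R6. With the excluded names put back 1 was higher from H1 to H1R1. Fewer members enter the narrower rules, and otherwise the cause was not tested.

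Leaving out 1 replicate at a time gave 7 to 35 higher at H1, 7 to 39 higher and 0 to 2 lower at H1R1, 0 to 3 higher at H1R6, 1 to 3 higher and 0 to 1 lower at H1R18, 0 to 4 lower from H1 to H1R1, and 0 to 5 higher and 1 to 26 lower from H1R1 to H1R6. The medians ran from 0.70 to 1.33 at H1 and from 0.43 to 0.92 at H1R1. A lone replicate was assumed to vary like the other conditions. Replicates of the same number did not deviate together (r from -0.04 to 0.05 over 11740 genes). With the replicate number as a block 34 members were higher at H1, 38 at H1R1 and 2 lower at H1R18. Of 968 values of named members under alternatives, 749 kept their side of the threshold and 219 did not. Alternatives for the upstream genes, the termination list and exon sharing, those of scaling, tool, filter and libraries for the medians, and all but one for the summed levels, were added after seeing the data, as was the same choice on 1 untreated replicate for the other quiet sets. Depth limits single members, with a median of 42 counts over 9 libraries.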
